A study of Mus musculus with 2 samples.

Results

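The retinoid handling genes studied here, 7 of the 55357 genes in the deposited tables, were followed from crypt to villus tip in single cells of the mouse small intestinal epithelium. They were Rbp2, Rdh7, Aldh1a1, Aldh1a2, Lrat, Bco1 and Isx, and they were found in the tables by their gene symbols. The set itself was chosen with earlier results of these data known. Enterocytes take up vitamin A as retinol and as provitamin A carotenoids from the diet. Retinol is bound in the cell by a retinol-binding protein and is either esterified for export in chylomicrons or oxidised in successive steps to retinal and retinoic acid, the ligand of nuclear receptors. Carotenoids are cleaved to retinal by a central oxygenase whose transcription is held down by a homeodomain repressor, which is itself induced by retinoic acid.

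A pair of libraries was compared, 1 from Adipfl/fl mice, which carry a loxP-flanked adiponectin gene, and 1 from Adipfl/flpVilli-CreT mice, which carry the same alleles and in addition Cre recombinase under a villin promoter, so that the gene is removed from the gut epithelium. Both were made from pooled male mice aged 8 weeks with no treatment named. The study describes the epithelium as enriched for crypts, and it used the libraries to ask how adiponectin made in the gut acts on crypt cells. Because there was 1 pooled library for each genotype, no difference between the genotypes has a replicate check and no test was made. The intervals given are 95% intervals for counting error only.

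Barcodes with more than 500 genes and under 25% of UMIs (unique molecular identifiers, each counting 1 captured transcript) from mt- genes were kept, which left 3069 of 9791 barcodes in the Adipfl/fl library and 5555 of 11838 in the Adipfl/flpVilli-CreT library, with 25687687 and 48895126 UMIs. The study described more cells after filtering than its stated limits leave in these tables. The libraries shared 31 barcodes, of which 3 were kept in both. Adipoq itself had 1 UMI over all barcodes of the Adipfl/fl library and 0 in the other, so it could not check the labels. Per 1000000 UMIs (CPM), the epithelial genes Epcam and Vil1 were at 3626 and 1594 in villus cells of the Adipfl/fl library and at 3573 and 1651 in the other. Of genes of the distal small intestine, Fabp6 and Slc10a2 were at no more than 3.19 and 2.15 CPM there. Hoxb13 was at no more than 1.66 in any villus class. Slc51a, Slc51b and Osr2 were higher. In the cells named mid-villus-like below they were at 328, 236 and 83.7 CPM in the Adipfl/fl library and 429, 312 and 82.1 in the other. Of genes of the proximal small intestine, Gata4, Lct and Fabp1 were at 62.8, 740 and 5160 CPM in villus cells of the Adipfl/fl library. The other library had 66.4, 611 and 4055. Onecut2 was between 23.0 and 94.3 in the villus classes, while Cybrd1 and Slc40a1 were at no more than 5.57 and 8.80. A supplementary legend of the study describes the clusters as ileal, and the region was not tested.

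Clusters were made without the 7 genes and were named from marker genes. The absorptive lineage held stem-like cells (41 in the Adipfl/fl and 118 in the Adipfl/flpVilli-CreT library), cycling transit-amplifying cells, here TA-like (43 and 89), villus bottom-like cells (223 and 445), mid-villus-like cells (1126 and 1757) and villus tip-like cells (604 and 1716). The stem-like cluster carried 11 of 11 stem markers, and also 12 of 12 cycling, 5 of 10 Paneth and 6 of 6 fibroblast markers. The part of such other cells in the stem-like levels was not tested. Depth and mitochondrial share changed along this axis. Villus bottom-like cells had a median of 21647 and 20485 UMIs with 6.55% and 5.85% mt- UMIs, and villus tip-like cells had 3718 and 3490 UMIs with 20.4% in both libraries. The part of these differences in the levels below was not tested. Each level is the UMI total of a gene in a class per 1000000 UMIs of that class, written CPM. The reads came from 3′ ends, the levels were not scaled to length, and no level of one gene is compared with that of another.

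In the mm10 build with GENCODE M21, Rbp2 lies at chr9:98486115-98509781 on the plus strand, Rdh7 at chr10:127884028-127888817 on the minus strand and Aldh1a1 at chr19:20492715-20643465 on the plus strand. Aldh1a2 lies at chr9:71215789-71296243 on the plus strand and Lrat at chr3:82892579-82903973 on the minus strand. Bco1 and Isx are both on chromosome 8, at chr8:117095854-117133720 and chr8:74873173-74893506, on the plus strand. The last 500 bases of each gene's longest coding transcript, where 3′ reads fall, matched no other gene at 90% identity over 100 bases or more. The longest match was between Aldh1a1 and its neighbour in sequence Aldh1a7, with 79.9% identity over 513 aligned positions. A model on the same strand, Gm37113, overlaps Rbp2 and held 1450 UMIs beside the 216513 of Rbp2.

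The promoters of 3 genes are shown because Rbp2 and Bco1 were the genes of the set at higher levels in villus tip-like than in villus bottom-like clusters, and Isx encodes the repressor of carotenoid cleavage. Each is the 250 bases before a RefSeq transcription start (GRCm38.p6), 5′ to 3′. The start of Rbp2 in RefSeq lies inside the GENCODE span given above. Capitals mark matches, on either strand, to AGGTCA (the repeated unit in sites of nuclear receptors), to TCAAAGGTCA (the core of a direct repeat of that unit with 1 base between the copies) and to TAATT (a homeodomain core). The unit AGGTCA is contained in TCAAAGGTCA, which was chosen after the windows were read.
Rbp2 (chr9:98490287-98490536, plus strand): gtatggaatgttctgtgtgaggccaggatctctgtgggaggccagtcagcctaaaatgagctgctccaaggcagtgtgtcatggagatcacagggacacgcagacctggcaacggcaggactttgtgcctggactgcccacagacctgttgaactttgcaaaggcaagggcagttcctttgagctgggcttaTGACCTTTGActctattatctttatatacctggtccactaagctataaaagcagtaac
Bco1 (chr8:117095615-117095864, plus strand): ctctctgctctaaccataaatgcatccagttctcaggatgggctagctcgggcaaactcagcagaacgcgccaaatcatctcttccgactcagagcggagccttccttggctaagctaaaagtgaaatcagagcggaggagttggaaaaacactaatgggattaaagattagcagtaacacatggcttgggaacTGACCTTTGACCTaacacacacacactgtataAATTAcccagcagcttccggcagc
Isx (chr8:74872924-74873173, plus strand): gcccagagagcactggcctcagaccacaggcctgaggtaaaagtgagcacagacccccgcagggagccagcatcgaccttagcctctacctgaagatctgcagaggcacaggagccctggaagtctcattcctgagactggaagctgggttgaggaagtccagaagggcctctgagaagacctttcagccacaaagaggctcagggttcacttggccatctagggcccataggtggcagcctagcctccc
The direct repeat core stood 58 bases before the start of Rbp2 and 56 bases before that of Bco1, and it was found in 36 of all 32851 windows of this length (0.110%). Rdh7 and Aldh1a1 have 2 starts each, so the 7 genes have 9 windows, and no other of these held it. AGGTCA was in 3 of the 9 windows and in 14.0% of all windows, and TAATT was in 3 of the 9 and in 25% of all. The Isx window held none of the 3 motifs, and the Bco1 window held TAATT once. Of the 32 other genes with the direct repeat core, 7 were measured well enough to compare villus tip-like with villus bottom-like cells. Higher levels at the tip, by at least 1.5-fold, were found for 1 of these 7 in the Adipfl/fl library and 2 in the Adipfl/flpVilli-CreT library, and lower levels for 4 and 3. Of all genes compared, 17.3% and 16.9% were higher at the tip and 61.6% and 61.5% lower, so nothing is read from these counts.

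Rbp2 encodes the cellular retinol-binding protein of the enterocyte, which carries retinol and retinal to the enzymes that use them. Its level in the Adipfl/fl library was 76.2 CPM in stem-like cells, then 168, 2121, 6473 and 4100 CPM through the TA, villus bottom, mid-villus and villus tip. The Adipfl/flpVilli-CreT library had 102, 119, 1708, 5330 and 3605 CPM in the same order. Both libraries were highest at mid-villus and lowest in the crypt. Villus tip-like cells held 1.93 times (1.88 to 1.99) and 2.11 times (2.07 to 2.15) the level of villus bottom-like cells in the respective libraries. T cell-like barcodes, which should lack Rbp2, held 262 and 483 CPM, 4.06% and 9.05% of the mid-villus level, which was above the level in stem-like and TA-like cells. After each cell was thinned to 2000 UMIs, 22.0% (10.6 to 37.6) of stem-like and 22.2% (17.9 to 26.9) of T cell-like barcodes of the Adipfl/fl library had a UMI of Rbp2, against 99.3% (98.6 to 99.7) of mid-villus-like cells. TA-like cells of the Adipfl/fl library had 27.9% (15.3 to 43.7). In the Adipfl/flpVilli-CreT library 14.6% (8.01 to 23.7) of TA-like cells had a UMI of Rbp2, against 30.4% (25.8 to 35.2) of T cell-like barcodes. Without thinning, 86.0% and 79.8% of the deeper TA-like cells and 40.5% and 40.7% of T cell-like barcodes had a UMI of Rbp2. Neither expression of Rbp2 in crypt cells nor its absence is read from these values.

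Rdh7 encodes a short-chain dehydrogenase that oxidises retinol to retinal. Its level was 3.86, 17.2, 168, 185 and 7.33 CPM from stem-like to villus tip-like cells of the Adipfl/fl library. In the Adipfl/flpVilli-CreT library it was 2.46, 14.6, 138, 187 and 6.78. Levels at the tip were 0.0436 times (0.0258 to 0.0694) and 0.0491 times (0.0357 to 0.0660) those at the bottom of the villus.

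Aldh1a1 encodes the retinal dehydrogenase that makes retinoic acid in many epithelia. It was at 1.93, 34.3, 195, 161 and 4.88 CPM in the Adipfl/fl library and at 3.16, 11.7, 118, 132 and 4.82 in the other. Like Rdh7 it was high at the bottom and middle of the villus and low at both ends of the axis, with tip levels 0.0250 times (0.0129 to 0.0439) and 0.0408 times (0.0278 to 0.0578) those at the bottom. At the tip, both enzymes were near the T cell-like level, which was 4.56 and 11.2 CPM for Rdh7 and 3.42 and 6.13 for Aldh1a1. With a limit of 10% mt- UMIs in place of 25%, the tip to bottom ratios were closer to 1, at 0.561 and 0.131 for Rdh7 and 0.353 and 0.202 for Aldh1a1.

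The mid-villus-like class was made of 4 clusters, and the oxidising enzymes differed between them. From the cluster closest to the villus bottom by landmark genes to the one closest to the tip, Rdh7 was at 344, 179, 48.5 and 27.1 CPM in the Adipfl/fl library and at 295, 165, 53.5 and 16.0 in the other. Aldh1a1 was at 319, 137, 38.2 and 15.3 through the same clusters and at 212, 112, 32.7 and 11.1 in the other library. Rbp2 was at 8116 in the first and 4520 in the last of them in the Adipfl/fl library and at 6021 and 3840 in the other. The first of these clusters had a median of 19033 UMIs and 5.83% mt- UMIs, and the last had 3074 and 22.0%. In the Adipfl/fl library the first held 142 of the 1126 cells of the class. Those cells held 1010 of its 1500 Rdh7 UMIs and 939 of its 1308 Aldh1a1 UMIs. The same cluster carried 4 of 12 villus bottom markers beside 10 of 14 mid-villus markers.

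Lrat encodes lecithin retinol acyltransferase, which esterifies retinol. It was at 17.4, 17.9, 13.8, 17.5 and 4.88 CPM from stem-like to villus tip-like cells of the Adipfl/fl library and at 12.6, 9.58, 13.9, 20.7 and 6.78 in the other. Its crypt and lower villus levels overlapped in their intervals in the Adipfl/fl library, and the tip was lower in both, at 0.355 times (0.176 to 0.657) and 0.488 times (0.343 to 0.684) the bottom. T cell-like barcodes held 1.14 and 2.04 CPM. Per 100 UMIs of Rbp2, stem-like cells held 22.8 and 12.4 UMIs of Lrat and T cell-like barcodes 0.435 and 0.424, which differ beyond the counting error of Lrat. The Rbp2 UMIs, 79 and 291 in stem-like cells, were taken as fixed. Which cells of the stem-like cluster, which also carried fibroblast markers, held Lrat was not tested.

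Bco1 encodes the oxygenase that cleaves beta-carotene to retinal. It was low below mid-villus, at 0.965, 0.747 and 2.20 CPM in stem-like, TA-like and villus bottom-like cells of the Adipfl/fl library, and stood at 10.4 at mid-villus and 28.5 at the tip. The Adipfl/flpVilli-CreT library had 2.11, 1.25, 0.611, 11.4 and 23.2. Tip levels were 12.9 times (6.96 to 26.2) and 38.0 times (18.0 to 96.0) those at the bottom, where there were 12 and 7 UMIs. Within the mid-villus-like class Bco1 was at 2.38, 3.86, 23.6 and 20.8 in the Adipfl/fl library and at 2.56, 10.7, 25.6 and 25.8 in the other, in the order of clusters used for Rdh7. The 2 clusters closest to the tip held more Bco1 than the 2 closest to the bottom, whereas Rdh7 and Aldh1a1 were higher in the latter. With a limit of 10% mt- UMIs in place of 25%, Bco1 was short of the minimum of 20 UMIs or 10 CPM for the comparison, with tip to bottom ratios of 14.2 and 79.3, and with 3 equal groups by landmark score they were 12.7 and 9.06.

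Isx encodes the intestine-specific homeobox protein that represses Bco1. It was spread more evenly, at 62.7, 99.3, 110, 91.3 and 65.1 CPM in the Adipfl/fl library and at 60.1, 105, 96.5, 67.7 and 48.1 in the other. Stem-like cells held 82.3 and 58.8 UMIs of Isx per 100 of Rbp2, and T cell-like barcodes 2.17 and 1.80. Tip levels were 0.590 times (0.492 to 0.703) and 0.498 times (0.438 to 0.565) those at the bottom.

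**Figure D1:**
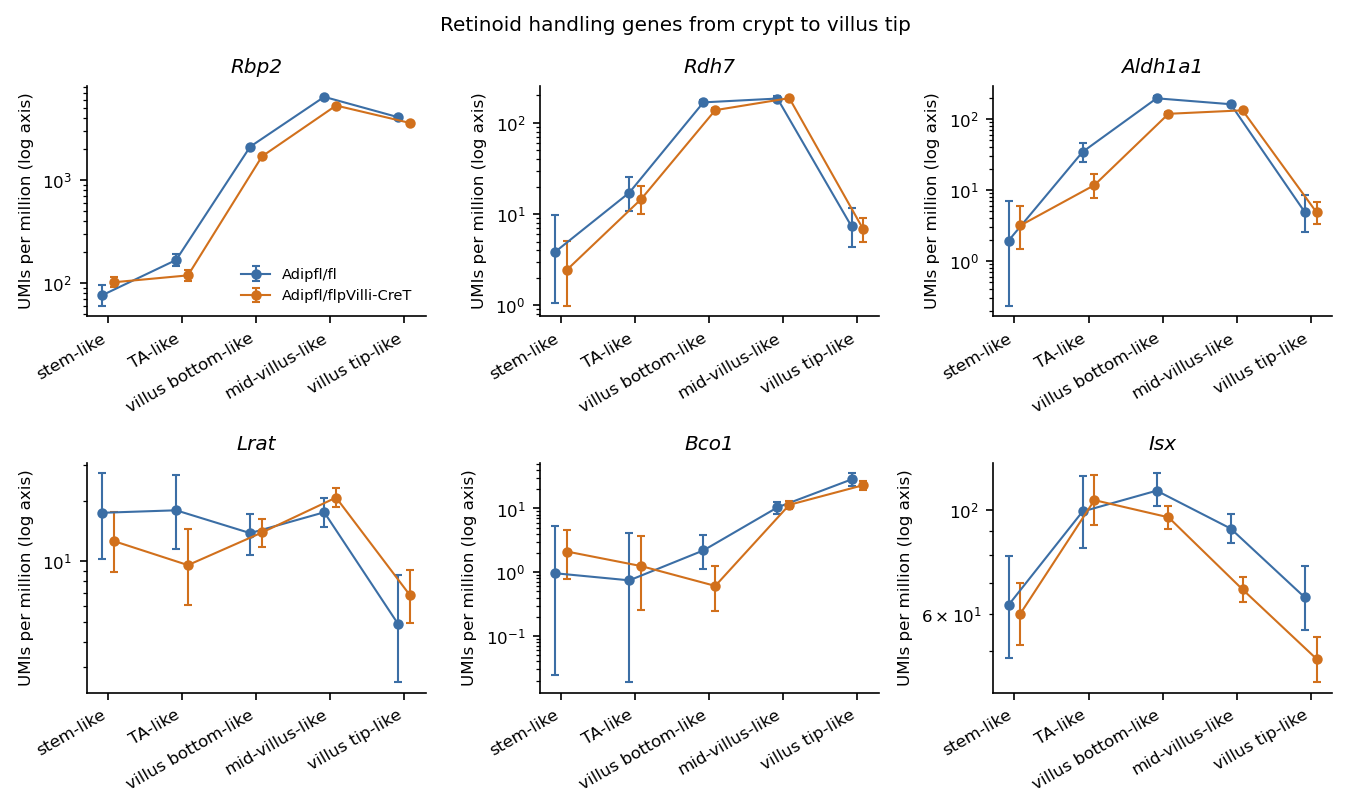
CPM (log axis) of 6 genes in the 5 classes of the absorptive lineage, with lines joining the classes of each library (Adipfl/fl blue, Adipfl/flpVilli-CreT orange) and bars for exact 95% Poisson intervals. Rbp2 is highest at mid-villus (6473 and 5330), Rdh7 and Aldh1a1 are high at the bottom and middle and below 10 at the tip, Lrat and Isx vary least, and Bco1 is highest at the tip (28.5 and 23.2).

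Of the 6 genes compared between tip and bottom, 2 were at least 1.5-fold higher at the tip and 4 at least 1.5-fold lower in each library, against 17.3% higher and 61.6% lower of 7767 genes in the Adipfl/fl library and 16.9% and 61.5% of 7740 in the other. The median log2 ratio of all genes was -1.07 in both libraries, and that of the 6 genes was -1.13 and -1.02. Relative to that shift the ratio of Isx became 1.24 and 1.05, on the other side of 1, and those of Lrat became 0.746 and 1.02, so neither Isx nor Lrat was lower at the tip than the typical gene by 1.5-fold. Rdh7 and Aldh1a1 stayed lower, and Rbp2 and Bco1 higher, by more than 1.5-fold. When the villus cells were instead cut into 3 equal groups by landmark score, the tip level of Rbp2 was 0.948 and 1.04 times the bottom level in the respective libraries. It was 0.852 and 1.04 times when cells were kept by an mt- share taken from the 13 protein-coding mitochondrial genes, and 1.46 and 1.45 times with 30 principal components, so the 1.5-fold difference of Rbp2 was lost in both libraries under these 3 settings. Isx in the Adipfl/fl library was at 1.11 times with a limit of 10% mt- UMIs.

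A second order, which did not use the 7 genes, divided the cells of the villus classes into 5 bins. Cells were placed by the mean level of tip landmarks minus that of bottom landmarks. These landmarks were also the markers that named the villus tip-like and villus bottom-like clusters. The bins are therefore not independent of the classes. Aldh1a1 was at 232, 133, 21.7, 4.81 and 5.10 CPM from bin 1 to bin 5 of the Adipfl/fl library and at 151, 108, 18.7, 9.06 and 3.71 in the other. Rdh7 went from 218 to 3.64 and from 195 to 6.27 over the same bins. Bco1 ran the other way up to bin 4, with 2.19, 8.84, 18.7, 32.1 and 31.3 in the Adipfl/fl library and 0.798, 12.6, 28.2, 29.7 and 17.7 in the other. Rbp2 was highest in bin 2, at 6453 and 5293. Median depth fell from 19506 and 18734 UMIs in bin 1 to 4498 and 5932 in bin 2, while from bin 2 to bin 5 it stayed between 3477 and 5932 with 18.2% to 21.5% mt- UMIs. The lower levels of Rdh7 and Aldh1a1 in bin 4 than in bin 2, 13.6 against 177 and 4.81 against 133 in the Adipfl/fl library, came with median depths of 3911 against 4498 UMIs and 21.3% against 20.0% mt- UMIs. In the other library these were 3477 against 5932 UMIs and 20.9% against 18.2%. Levels are sums of UMIs in which deeper cells weigh more, so similar medians do not show that depth was matched. The part of depth and mt- share in the levels was not tested.

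**Figure D2:**
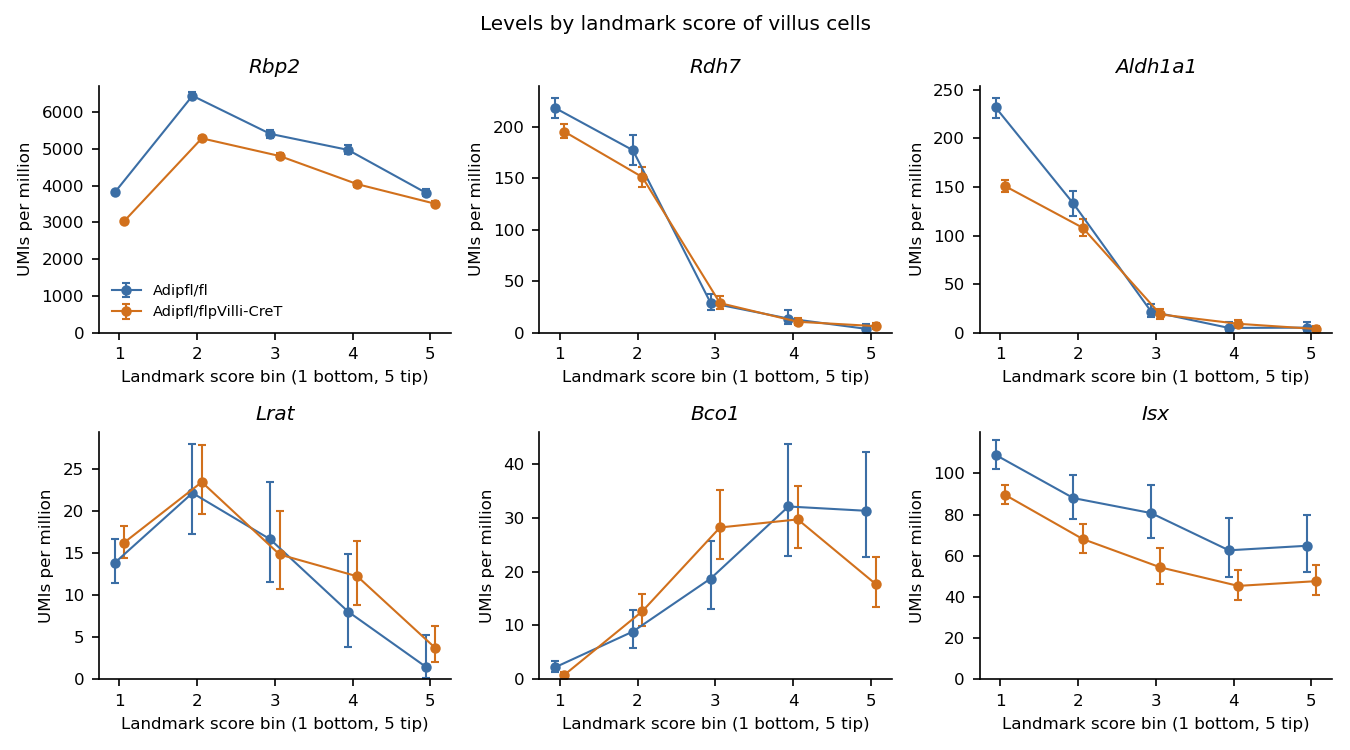
CPM of 6 genes in 5 equal-sized bins of villus cells ordered by landmark score (1 nearest the bottom, 5 nearest the tip), for the Adipfl/fl (blue) and Adipfl/flpVilli-CreT (orange) libraries, with exact 95% Poisson intervals. Rdh7 and Aldh1a1 drop between bins 2 and 4 while Bco1 is near 30 CPM in bin 4 of both libraries, and Rbp2 is highest in bin 2.

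Aldh1a2, the other retinal dehydrogenase of the set, was barely detected in enterocytes. It had 0 UMIs in stem-like, TA-like, villus bottom-like and mid-villus-like cells of both libraries, which allows up to 0.370 CPM at mid-villus of the Adipfl/fl library if 3 UMIs are set for a count of 0. There was 1 UMI in villus tip-like cells. Of its 50 UMIs in kept cells, 49 were in myeloid-like cells, 45 in 3 of 63 cells of the Adipfl/fl library and 4 in 2 of 31 cells of the other. A single cell held 41 of the 45. The myeloid-like level was 171 CPM (125 to 229) in the Adipfl/fl library and 16.0 without that cell, against 27.9 (7.61 to 71.5) in the other, and the difference between the libraries rests on that cell. All 3 cells of the Adipfl/fl library and 1 of the 2 of the other had UMIs of H2-Aa, which encodes a chain of the antigen-presenting class II complex. Of the 3 in the Adipfl/fl library, C1qa, Csf1r and Itgax were each in 2. Flt3, Xcr1, Clec9a and Adgre1 were each in 1 of them, and Zbtb46, Cd209a and Cpa3 in 0. The type of these cells was not determined. The myeloid-like cluster also carried all 5 mast cell markers beside 13 of 16 myeloid markers.

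Bco1 was also found in enteroendocrine-like cells, the hormone-making cells of the epithelium. Its level there was 77.0 CPM (52.3 to 109) in the Adipfl/fl library, from 31 UMIs in 21 of 55 cells, and 40.5 (24.4 to 63.2) in the Adipfl/flpVilli-CreT library, from 19 UMIs in 16 of 57 cells. Both were above the villus tip-like levels of 28.5 (22.2 to 36.0) and 23.2 (19.7 to 27.2), although the intervals of the Adipfl/flpVilli-CreT library overlapped. T cell-like barcodes held 5.14 and 2.56, which was 49.5% and 22.4% of the mid-villus level of Bco1, and goblet-like cells 1.06 and 2.69. In the Adipfl/fl library 1 T cell-like barcode held 5 of the 9 Bco1 UMIs of its class. At 2000 UMIs per cell, 11.5% (4.35 to 23.4) and 7.41% (2.06 to 17.9) of enteroendocrine-like cells had a UMI of Bco1, against 0.583% (0.0707 to 2.09) and 0.510% (0.0618 to 1.83) of T cell-like barcodes. Villus tip-like cells had 5.43% (3.72 to 7.62) and 4.10% (3.18 to 5.19), which overlapped the enteroendocrine-like intervals in both libraries. The 2 enteroendocrine-like clusters had similar levels, 64.3 and 94.5 in the Adipfl/fl library and 39.8 and 41.1 in the other. No single enteroendocrine-like cell held more than 12.9% of the Bco1 UMIs of its class. The Adipfl/flpVilli-CreT level was 0.526 times (0.281 to 0.961) that of the Adipfl/fl library.

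**Figure D3:**
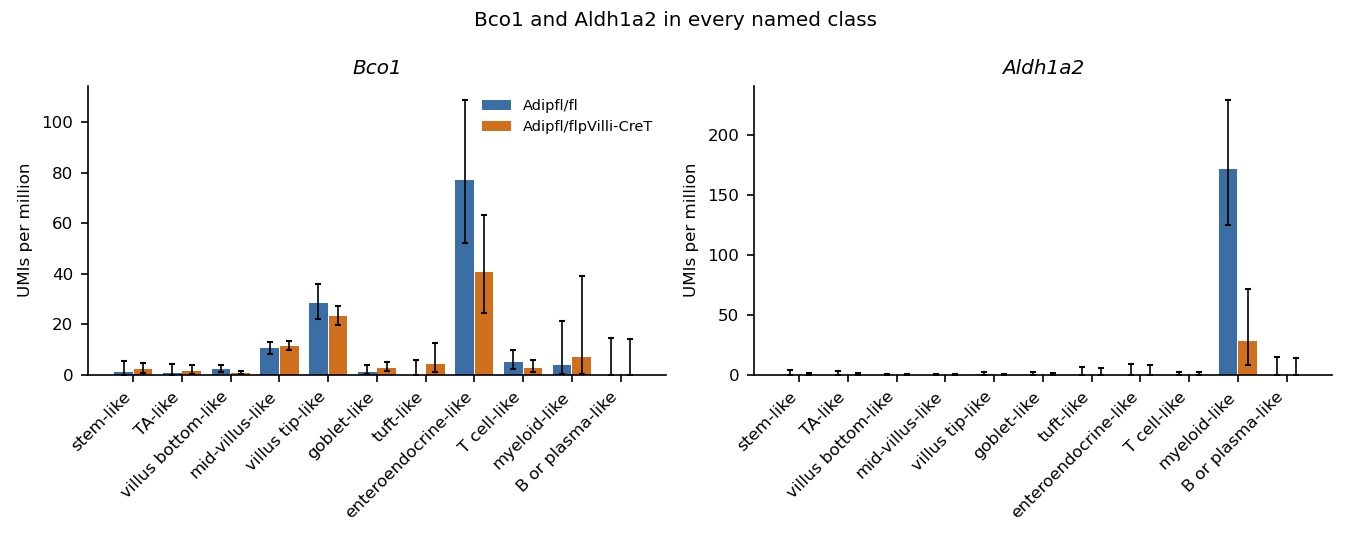
CPM of Bco1 (left) and Aldh1a2 (right) in the 11 named classes of both libraries (Adipfl/fl blue, Adipfl/flpVilli-CreT orange), with exact 95% Poisson intervals. Bco1 is highest in enteroendocrine-like cells (77.0 and 40.5) and next in villus tip-like cells, and Aldh1a2 is found in myeloid-like cells, where 1 cell holds 41 of the 45 UMIs of the Adipfl/fl library.

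In goblet-like and tuft-like cells Rbp2 was below its level in each villus class, whereas Rdh7 was above its villus tip-like level. Goblet-like cells held 1098 and 1411 CPM of Rbp2, 48.0 and 58.7 of Rdh7 and 65.5 and 51.9 of Isx in the respective libraries. Tuft-like cells held 1561 and 1516 of Rbp2 and 64.7 and 44.3 of Rdh7. Doublets were not removed, and in the Adipfl/fl library 1 tuft-like cell held 51.4% of the Rbp2 UMIs of its class and in the other library 1 cell held 48.0%. In thinned cells, 46.0% and 58.6% of goblet-like cells had a UMI of Rbp2.

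The genotypes were then compared within each villus class, and a gene was counted when the libraries differed by at least 1.5-fold. Of the 7 genes, only Aldh1a1 in villus bottom-like cells passed. It was at 195 CPM (184 to 207) in the Adipfl/fl library and at 118 (112 to 125) in the Adipfl/flpVilli-CreT library, 0.606 times the level (0.559 to 0.657). That was 1 of 5 genes compared there and 0 were higher, while 0.965% of 7562 genes were lower and 1.08% higher. At mid-villus 0 of 6 passed, with 1.21% of 6941 genes lower and 1.60% higher. Among the 3 genes with enough UMIs in villus tip-like cells (Rbp2, Bco1 and Isx) 0 passed, with 3.59% of 5512 genes lower and 4.64% higher. The median log2 ratio of all genes was 0.00, 0.03 and 0.02 in the 3 classes.

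Aldh1a1 was lower in the Adipfl/flpVilli-CreT library in the neighbouring cells as well. The ratio was 0.339 (0.204 to 0.555) in TA-like cells, from 46 and 28 UMIs, 0.665 (0.612 to 0.723) in the mid-villus-like cluster closest to the bottom, and 0.652 (0.614 to 0.691) in bin 1 of the landmark score. In the Adipfl/fl library 1 TA-like cell held 21.7% of the 46 UMIs. Crypt clusters of 0 and 54 and of 2 and 21 cells, each with 12 of 12 cycling markers, stayed unnamed. They are outside the TA-like class. An unnamed enterocyte cluster led by Lypd8l, with 110 and 213 cells, had 193 and 78.6 CPM and a ratio of 0.407 (0.316 to 0.521). Over all mid-villus-like cells it was 0.815 (0.759 to 0.874), and with a limit of 10% mt- UMIs it was 0.662 and passed. It was closer to 1 in these cells when each cell counted equally (0.940), without the 10% of cells with the most UMIs (0.977) and in the middle of 3 equal groups by landmark score (0.977). Goblet-like and tuft-like cells had ratios of 1.11 (0.845 to 1.47) and 1.04 (0.612 to 1.76). The richest villus bottom-like cells held 3.67% and 1.92% of the Aldh1a1 UMIs of their class. In the lowest of 3 equal groups by landmark score the ratio was 0.679, short of 1.5-fold.

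Markers of other cells differed between the libraries in the same cells. The 9 goblet markers summed to 199 CPM in villus bottom-like cells of the Adipfl/fl library and to 1461 in those of the other, with none at 0, and the 12 T cell markers to 33.4 and 176, with none at 0. Their part in the ratio of Aldh1a1 was not tested. Goblet-like and T cell-like cells themselves held at most 45.7 and 6.13 CPM of Aldh1a1.

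Rbp2 was lower in the Adipfl/flpVilli-CreT library in each villus class, with ratios of 0.805 (0.787 to 0.824), 0.823 (0.814 to 0.833) and 0.879 (0.859 to 0.90) from bottom to tip. In T cell-like barcodes the ratio was 1.84 (1.64 to 2.06). Isx was lower by a similar factor, 0.874 (0.790 to 0.966), 0.741 (0.674 to 0.816) and 0.738 (0.608 to 0.898), and it was below 1 in all 5 landmark bins, between 0.674 and 0.824. In stem-like and TA-like cells Isx did not differ beyond counting error, at 0.958 (0.716 to 1.29) and 1.06 (0.857 to 1.32). Rdh7 had ratios of 0.823 (0.758 to 0.894) at the bottom and 1.01 (0.946 to 1.07) at mid-villus, where the value was 0.885 when the 4 clusters counted equally. Lrat had 1.01 (0.762 to 1.35) and 1.18 (0.965 to 1.45), and Bco1 had 1.10 (0.844 to 1.45) at mid-villus and 0.814 (0.610 to 1.10) at the tip, all within counting error of 1. In the landmark bins the ratio of Bco1 lay on both sides of 1, at 0.365 (0.168 to 0.777) in bin 1, 1.51 (1.01 to 2.30) in bin 3 and 0.565 (0.377 to 0.853) in bin 5. With a limit of 10% mt- UMIs, Rbp2 and Isx passed 1.5-fold in villus tip-like cells, at 0.593 and 0.477, and Bco1 at mid-villus was at 2.55 but short of the minimum of UMIs or CPM. Genes of intestinal regions also differed between the libraries. At mid-villus the proximal genes Fabp1 and Lct were at 8342 and 1150 CPM in the Adipfl/fl library. They were at 7246 and 1003 in the other. The distal genes Slc51a and Slc51b were at 328 and 236 against 429 and 312. Onecut2 was at 26.4 and 23.0, Gata4 at 59.2 and 59.6 and Osr2 at 83.7 and 82.1. The part of region in the ratios of Rbp2, Isx and Aldh1a1 was not tested.

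**Figure D4:**
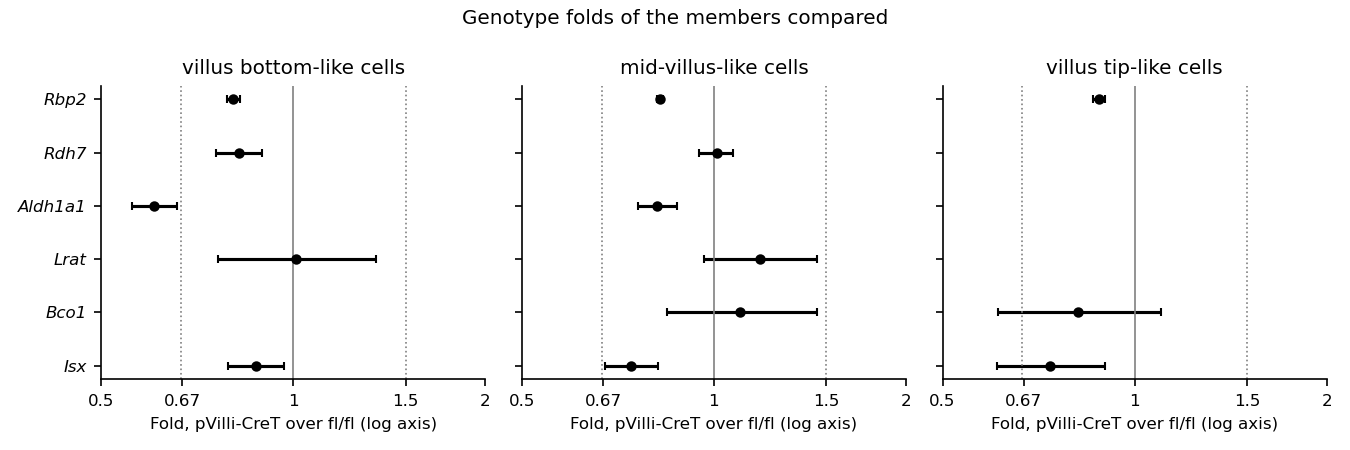
Ratio of the Adipfl/flpVilli-CreT to the Adipfl/fl level (log axis) of each gene at the minimum of UMIs and CPM in the 3 villus classes, with exact 95% intervals for counting error. The solid line marks 1 and the dotted lines a 1.5-fold difference, and of the 14 points only Aldh1a1 in villus bottom-like cells (0.606) lies beyond them.

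A further 52 genes of retinoid metabolism were counted on 6 lists. Between tip and bottom, 23 were compared in the Adipfl/fl library, of which 3 were higher and 15 lower by 1.5-fold, and 25 in the other, of which 4 were higher and 15 lower, beside the shares of all genes given above. The retinol and retinal oxidoreductases were lower at the tip in 10 of 10 and 10 of 11 compared. Adh1 was at 110 against 22.8 CPM and Dhrs3, which reduces retinal back to retinol, at 50.6 against 15.5 in the Adipfl/fl library. The median log2 ratio of this list was -2.06 and -2.32, against -1.07 of all genes in both libraries. Rdh14, at -0.77 and -0.61, and Rdh10 in the Adipfl/fl library, at -1.05, were not lower than the typical gene. Of the ester and carotenoid list, 3 of 7 were higher in each library. Dgat2, an acyltransferase, was at 87.5 at the bottom and 305 at the tip, Plb1, a brush border retinyl ester hydrolase, at 19.8 and 137, and Pnliprp2, a lipase, at 0.917 and 26.9 in the Adipfl/fl library. Bco2, the eccentric carotenoid cleavage enzyme, had a pattern opposite to that of Bco1, with 67.7 at the bottom and 5.29 at the tip.

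Between the genotypes, 1 of 23 genes of the lists passed in villus bottom-like cells, Fabp5 with 3.85 and 10.5 CPM, 0 of 23 at mid-villus and 3 of 17 at the tip. Of all genes, 1.08% were higher and 0.965% lower at the bottom, 1.60% and 1.21% at mid-villus, and 4.64% and 3.59% at the tip. The last were Dhrs9, higher in the Adipfl/flpVilli-CreT library (11.6 against 7.73 CPM, with an interval of the ratio from 0.899 to 2.63), and Retsat (0.576, 0.372 to 0.901) and Plb1, lower. Plb1 was at 137 and 84.8, a ratio of 0.618 (0.539 to 0.710), and had ratios of 0.970 (0.767 to 1.23) at the bottom and 0.835 (0.781 to 0.892) at mid-villus. Fabp5 was far higher in other classes, at 1719 and 2096 CPM in enteroendocrine-like cells and 54.0 and 63.2 in stem-like cells. The part of such cells in its villus bottom-like difference was not tested. The receptors Rara, Rxra and Rxrb were measured in all 3 villus classes and none passed. Retinoic acid breakdown enzymes (Cyp26a1, Cyp26b1 and Cyp26c1) had too few UMIs to compare.

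Across the 11 named classes of both libraries (22 points, which share libraries and depth), the genes most like each of the set in log2 level were found. The 7385 genes at 50 CPM or more in some class and library were ranked. The 52 genes of the lists were left out when the closest genes were named, so their likeness to the set is not given. Rdh7 and Aldh1a1 were most alike within the set, with a Pearson correlation of 0.96. Outside the set and the lists, Rbp2 was closest to Gk and Asah2 (0.98 each), Rdh7 to Maob and Slc2a5 (0.96 each), and Aldh1a1 to Maob and Ppargc1a (0.97 and 0.95). Lrat was closest to Msra, Atp5d and Slc25a3 (0.95, 0.93 and 0.92) and Isx to Mapk13, Nectin3 and Cds1 (0.95 each). Bco1 was closest to Aplp1, Pam and Dgkh (0.95, 0.93 and 0.89), of which Pam encodes the enzyme that amidates peptide hormones. Bco1 and Isx, enzyme and repressor, had a correlation of 0.04 over these 22 points. The points mix T cell-like, myeloid-like and enteroendocrine-like classes with the absorptive ones, and a correlation within the absorptive classes was not computed. Aldh1a2 had under 100 UMIs and was left out.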

How the data were processed

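Single cells of small intestinal epithelium were measured with 10x 3′ libraries, 1 per genotype. Per the submitters' processing notes, reads were handled with bcl2fastq 5.0.1 and Cell Ranger (version 7.1.0 by the table headers) against mm10. The authors deposited raw UMI counts for each gene and barcode, with no normalization and before the study's quality filter on cells. The 9791 and 11838 barcodes equal the cell numbers that the study gives before that filter. The 7 genes, the lists and the comparisons were chosen with earlier results of these data known.

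Barcodes with more than 500 genes and under 25% mt- UMIs were clustered with Seurat 5.3.0 under R 4.3.3 (LogNormalize, scale factor 10000, 2000 variable genes without the 7 genes and the 52 of the lists, 20 principal components, resolution 0.8, and 0.4 within crypt clusters). A cluster was named from at least 3 markers that were 2-fold higher there with at least 10 UMIs, by the markers among its 10 leading genes and then the share of a list. Clusters with over 90% of cells from 1 library, or with a tie, stayed unnamed. Doublets were not removed.

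Levels are sums of UMIs over a class, scaled to 1000000 UMIs (CPM), with exact Poisson intervals, exact conditional intervals for ratios and exact Clopper-Pearson intervals for shares, all at 95% and for counting error only. A ratio was counted past 1.5-fold with at least 20 UMIs over both sides and 10 CPM in the higher. A count of 0 was set to 3 UMIs. Genes of the lists were named when they were at 50 CPM or more and passed 1.5-fold between the genotypes. Fabp5, Dhrs9, Retsat, Rbp4, Rbp7 and the tip to bottom examples were named after their values were seen. The computation of ratios and intervals was tested on simulated Poisson counts, the model that the intervals assume. These had no variation between cells, mice or libraries, so they do not bear on whether the ratios would be found again. Python 3.11.15 with SciPy 1.17.1 was used, and transcripts were matched with BLAST 2.17.0.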

Additional observations from a re-analysis of the deposited data

Results flagged for a closer look

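The barcodes that the filter removed, 6722 in the Adipfl/fl and 6283 in the Adipfl/flpVilli-CreT library, are outside the comparisons and held UMIs of 6 of the 7 genes above what a count of 0 allows. Rbp2 was at 2752 and 2362 CPM there, Isx at 48.1 and 43.0, Rdh7 at 26.6 and 21.4, and Aldh1a1 at 21.7 and 14.2, each below its level in kept barcodes. Bco1 was at 12.5 and 14.4, above its level of 8.25 and 8.0 in kept barcodes, and Lrat at 9.29 and 11.1. Aldh1a2 had 2 and 0 UMIs. The UMI totals include those of mt- genes, whose share the filter limits in kept barcodes only. The part of that share in these differences was not tested. Which cell classes these barcodes came from was not tested.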

How the results depend on the processing

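Of 390 ratios recomputed under 13 alternatives, 297 stayed within the counting interval of the reported ratio, 87 moved beyond it and 6 of ratios past 1.5-fold crossed 1. Ratios short of that fold or of the minimum level also crossed 1, among them Rdh7 between the genotypes at mid-villus, at 0.865 to 1.26 with the direction of 1.01 in 3 of 13 alternatives, and Bco1 in villus bottom-like cells, at 1.09 in place of 0.278 with 3 equal groups. The 2 counts of tip against bottom stayed within 1.5 times. Of the 7 genes, the count past 1.5-fold between the genotypes was 1 in villus bottom-like cells and became 0 at a fold of 2 and 0 with 3 equal groups by landmark score (both Aldh1a1), and 2 with no minimum level, where Bco1 with 12 and 7 UMIs was added. The count of 0 at mid-villus became 1 (Aldh1a1) with a limit of 10% mt- UMIs. The count of 0 at the tip became 2 (Rbp2, Isx) with that limit, 1 (Isx, 0.664) with a higher minimum of genes per barcode and 1 (Rdh7, 0.637) when the genes were kept among the variable genes. Tip to bottom ratios crossed 1 for Rbp2 in the Adipfl/fl library, at 0.852 with the mt- share taken from 13 protein-coding genes and 0.948 with 3 equal groups, and for Isx there, at 1.11 with 10% mt- UMIs. In the Adipfl/flpVilli-CreT library Rbp2 was at 1.04 with the 13 genes and with 3 equal groups, and with 30 principal components it was at 1.46 and 1.45, short of 1.5-fold in both libraries. With 10% mt- UMIs Bco1 was short of the minimum of UMIs or CPM for that comparison in both. Divided by the median ratio of all genes, Isx became 1.24 and 1.05 and Lrat in the Adipfl/flpVilli-CreT library 1.02. The cause was not tested. Rdh7 and Aldh1a1 were lower and Bco1 higher at the tip under each of 13 alternatives in both libraries, and Aldh1a1 was lower in villus bottom-like cells of the Adipfl/flpVilli-CreT library under each, at 0.588 to 0.679. Equal weight for each cluster of a class was added after seeing the data. It could not change the genotype ratios of villus bottom-like cells, which formed a single cluster. Division by the median ratio of all genes could change these ratios little, because the median log2 ratio there was 0.00. With 1 library per genotype, no library could be left out, and depth limits Bco1 at the bottom (12 and 7 UMIs) and Aldh1a2 (50 UMIs). No paired analysis was possible because there was 1 library per genotype and no test.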

Other observations

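Other retinoid binding proteins marked other classes. Rbp7 was at 235 CPM in TA-like cells of the Adipfl/fl library and 200 in those of the Adipfl/flpVilli-CreT library, and at 44.6 and 37.1 in villus bottom-like cells. Rbp4, the retinol carrier of plasma, was at 690 and 530 in enteroendocrine-like cells and at no more than 0.935 in the 3 villus classes.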
